A study of Mus musculus with 12 samples.

Results

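The 10 genes of interest belong to the transforming growth factor β (TGF-β) pathway: the 3 ligands *Tgfb1*, *Tgfb2*, and *Tgfb3*, the receptors *Tgfbr1* and *Tgfbr2*, the activators and anchors *Itgav*, *Itgb8*, *Lrrc32*, and *Thbs1*, and *Tgfbi*, which encodes a matrix protein named for its induction by TGF-β. They were taken by name, as 10 of the 31053 genes in the count matrices. All 10 were detected in both matrices, and none was left out by a filter on low values. Each was measured in macrophages, monocytes, dendritic cells (DCs), neutrophils, T cells, tumor cells, and fibroblasts, which were set apart by the UMIs (counted RNA molecules) of marker genes.

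The study sequenced single cells from tumors of the MMTV-PyMT mouse, in which a viral promoter active in mammary epithelium drives the polyoma middle T oncogene and breast cancer arises spontaneously. All mice carried this oncogene and none had a further treatment. PyMT-PAR2 WT mice had wild-type protease activated receptor 2 (PAR2), whereas PyMT-PAR2 G37I mice carried a PAR2 mutant that resists signaling by coagulation factor Xa. Cells were bead selected for CD11c, a surface protein of macrophages and DCs, from late-stage tumors, or for CD4 and CD8, surface proteins of T cells, from mid-size tumors, then frozen, thawed, and run on the 10x Genomics platform, with 3 samples for each genotype and selection. The sample labels give no age, and the methods of the study give usual ages for the tumor model and not for each sample.

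Each selection was deposited as 1 matrix whose cell barcodes name no sample. Genotypes were therefore not compared, each matrix counts as 1 sample, no value has an error between replicates, and no p-value is given. The 11639 CD11c-selected cells held 123642015 UMIs (median 7943 per cell), and the 22806 CD4/CD8-selected cells held 135965765 (median 4361). Gates are named for their markers. Among the 6970 CD11c-selected macrophages, which were gated on the complement genes *C1qa*, *C1qb*, and *C1qc*, 255 also had at least 3 UMIs summed over *Lyve1*, *Cd209f*, and *Fcna*, 325 over *Gpnmb* and *Atp6v0d2*, and 1802 over *Tmem119* and *Zmynd15*, and 3572 fell in no finer gate and are called other macrophages. The 938 Retnla/Ear2 myeloid cells were gated on *Retnla* and *Ear2* alone. Cells that passed more than 1 finer gate were left out of those gates, but stayed among all macrophages if they passed the macrophage threshold. Below the macrophage threshold stood 84 monocytes (*Ly6c2*), 385 type 1 conventional DCs (cDC1; *Xcr1*, *Clec9a*, and *Snx22*), 224 type 2 conventional DCs (cDC2; *Cd209a*), and 359 migratory DCs (*Fscn1* and *Ccr7*). In each matrix the barcodes run through the alphabet 6 times, and these 6 stretches, called barcode runs, are used only to show how evenly a value was spread. UMIs per run ranged from 13314063 to 24245504 and from 16222260 to 30182353 in the 2 matrices. In all, 76 and 51 barcodes occurred more than once, and 128 and 161 cells with markers of more than 1 lineage were left out as possible doublets. Check markers, which set no gate, were all higher in their gate than in all cells of the matrix for each of the gates of at least 50 cells that had any.

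TGF-β is secreted in a latent form, held in a complex with its own propeptide, the latency-associated peptide. The complex is stored in matrix or held on cell surfaces by anchors such as GARP, the product of *Lrrc32*. It is opened by integrin αvβ8, a pair of the *Itgav* and *Itgb8* proteins, and by thrombospondin 1, the product of *Thbs1*. Freed TGF-β binds the type II receptor (*Tgfbr2*), which then activates the type I receptor (*Tgfbr1*). In tumors the pathway is known for restraining T cells and for building fibrous stroma.

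Integrins of the αv family grip latent TGF-β through an arginine-glycine-aspartate (RGD) stretch of the propeptide, so the reading frames of the members were searched for RGD codons in the GENCODE M21 transcripts (GRCm38), taking the longest coding sequence of each gene. The 27 bases around each match in the 2 ligands that have one are shown because they set these ligands apart from the third, with the 9 bases of the RGD codons in capitals.
Tgfb1: cccaaacgtCGGGGCGACctgggcacc
Tgfb3: gaccatggcCGTGGAGACctggggcgt
The *Tgfb1* stretch begins its RGD codons at codon 244 of 390 and lies in exon 5, at chr7:25697133-25697159 on the plus strand. The *Tgfb3* stretch begins them at codon 261 of 412 and also lies in exon 5, at chr12:86062156-86062182 on the minus strand. The 442 codons of *Tgfb2*, a gene at chr1:186622792-186705989 on the minus strand, held no in-frame RGD. Among the other members, *Tgfbi* and *Thbs1* held 1 site each, and the receptors, integrin chains, and *Lrrc32* held none. Of 21562 coding genes, 7.25% held at least 1 such match, so a match is only a description of the letters.

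Levels are UMIs of the gene per 1000000 UMIs of the gate (CPM), with exact 95% Poisson confidence intervals (CI). Shares of cells carry exact Clopper-Pearson intervals. Intervals and upper limits cover counting error only. Levels are ordered across gates within a gene and not between genes. The 20 gates of at least 50 cells that share no cells within a matrix are compared, together with all CD11c-selected macrophages as a whole. The 2 matrices differ in selection and tumor stage, and a difference between gates of different matrices cannot be told apart from these. CD11c- and CD4/CD8-selected macrophages held 1166 and 620 CPM of *Tgfbi* and 402 and 179 of *Thbs1*. They held 241 and 191 of *Tgfb1*, and 116 and 112 of *Tgfbr2*.

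**Figure D1:**
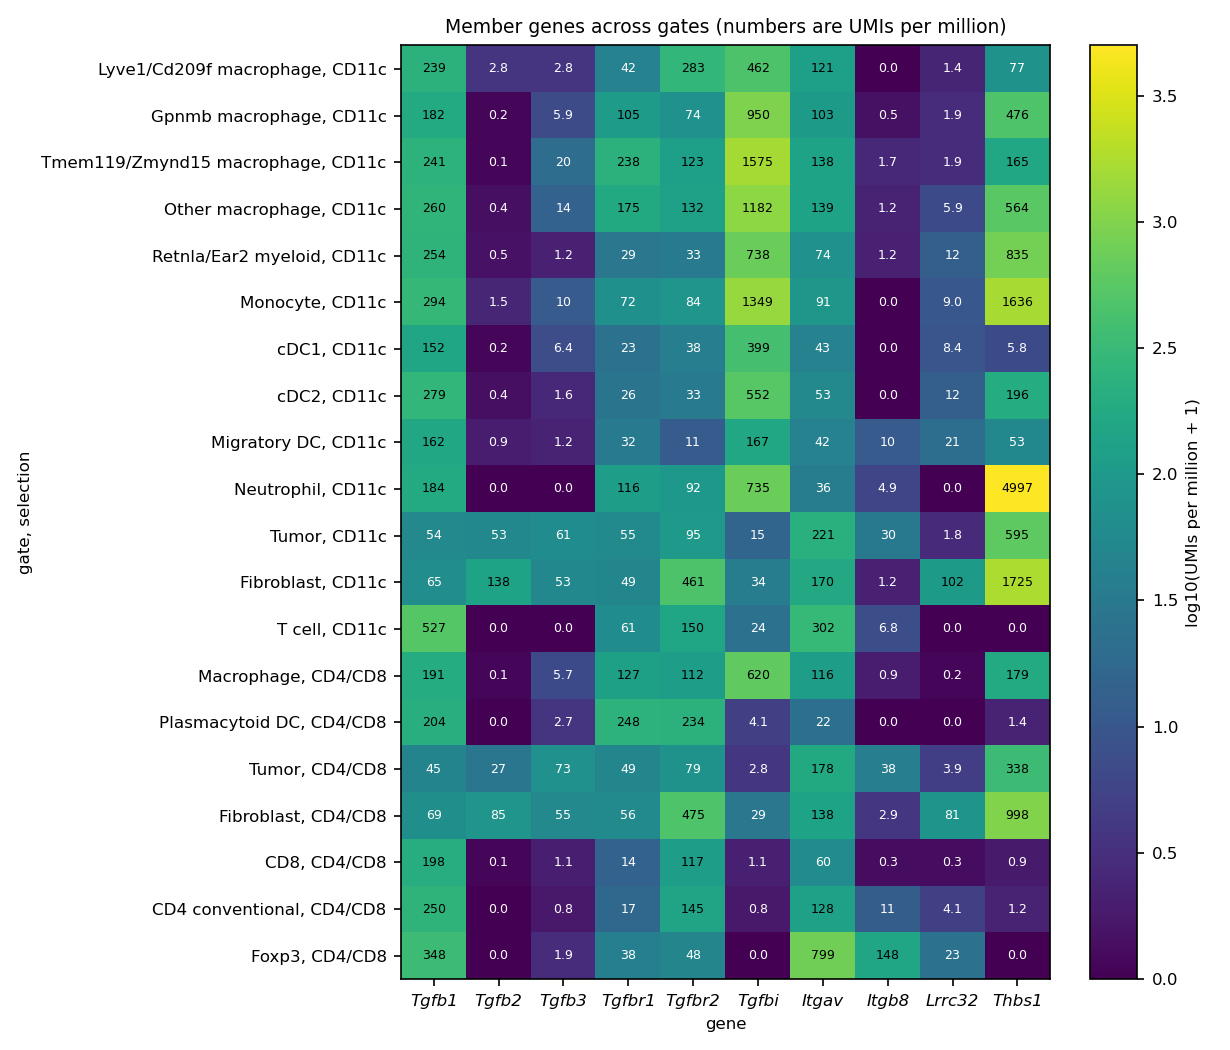
Level (CPM) of the 10 genes (columns) in 20 gates (rows, with the selection), colored on a log10 scale. *Tgfb1* lies between 45.4 and 526.6 in every gate, whereas the highest values of *Thbs1* (4997) and *Itgav* (798.9) stand in the neutrophil and Foxp3 gates.

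*Tgfb1*, the ligand made by most immune cells, was found in every gate. Its highest level was in the 55 T cells that copurified with CD11c-selected cells, at 526.6 CPM (CI 447 to 616). The 97 Foxp3-gated T cells, which carry the marker of regulatory T cells, followed at 347.6 (CI 298.8 to 402), with an interval that does not reach theirs. Monocytes were at 294.1 (CI 254 to 338) and cDC2 cells at 278.9 (CI 259 to 300.4), and the intervals of Foxp3-gated cells, monocytes, and cDC2 overlap one with the next. In the 3 Foxp3 runs of at least 10 cells the level was 288, 316, and 420. In the 3 such runs of the CD11c-selected T cells it was 377, 515.5, and 577, so these gates overlap by run. With cells of several lineages kept, the level of those T cells fell below the interval given here.

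Macrophages differed little in *Tgfb1*. All CD11c-selected macrophages were at 241 CPM (CI 238 to 244.5), with barcode runs between 217 and 271. The Lyve1/Cd209f gate was at 239 (CI 222 to 257.5), the Tmem119/Zmynd15 gate at 241 (CI 235 to 248), and the Gpnmb gate lower at 182 (CI 172 to 193). Other macrophages were at 260 (CI 254 to 267). The 951 CD4/CD8-selected macrophages were at 191 (CI 184 to 198), with runs from 168 to 322. CD8 T cells were at 198 (CI 195 to 201), with runs from 147 to 260. The lowest gates were fibroblasts, at 64.7 and 69.1 CPM in the CD11c- and CD4/CD8-selected cells, and tumor cells, at 53.9 and 45.4.

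The levels of *Tgfb2* ran the other way. Fibroblasts held 137.8 CPM of it (CI 120.5 to 157) in the CD11c-selected cells and 84.8 (CI 70.3 to 101.5) in the CD4/CD8-selected cells. Tumor cells held 52.5 (CI 47.1 to 58.4) and 27.2 (CI 23.7 to 31.1). Among the other gates of at least 50 cells the highest was the Lyve1/Cd209f macrophage gate, at 2.75 (CI 1.19 to 5.42) from 8 UMIs, and in those runs it lay between 0 and 17.9. Tumor cells thus contributed 44.0% and 49.2% of all *Tgfb2* UMIs of the 2 matrices, and fibroblasts 29.3% and 27.2%. No *Tgfb2* UMI was seen in Foxp3-gated cells, where 3 counts would be 5.76 CPM, nor in neutrophils, plasmacytoid DCs, CD4 T cells, or the 55 T cells.

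*Tgfb3* was highest in tumor cells, at 72.9 CPM (CI 67.1 to 79.1) in the CD4/CD8-selected and 61.3 (CI 55.4 to 67.6) in the CD11c-selected cells, with overlapping intervals. Fibroblasts followed at 54.9 (CI 43.3 to 68.6) and 52.6 (CI 42.1 to 64.9). Here a macrophage gate came next. Tmem119/Zmynd15 macrophages held 20.1 (CI 18.3 to 21.9), with runs from 10.5 to 25.6, and other macrophages 13.6 (CI 12.2 to 15.2). The Gpnmb gate was at 5.93 (CI 4.18 to 8.18) and the Lyve1/Cd209f gate at 2.75 (CI 1.19 to 5.42), with runs from 0 to 7.40, all below those of the Tmem119/Zmynd15 gate.

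Counted together, *Tgfb1* made up 95.2% of the ligand UMIs of CD11c-selected macrophages (CI 94.9 to 95.5) and 99.4% of those of CD8 T cells (CI 99.3 to 99.5). In tumor cells its share was 32.1% (CI 29.4 to 35.0) and 31.2% (CI 28.6 to 34.0), and in fibroblasts 25.4% (CI 21.3 to 29.8) and 33.1% (CI 27.7 to 38.8). *Tgfb3* gave the most ligand UMIs in tumor cells (399 of *Tgfb3*, 351 of *Tgfb1*, and 342 of *Tgfb2* in the CD11c-selected cells), and *Tgfb2* the most in fibroblasts (228, against 107 of *Tgfb1* and 87 of *Tgfb3*). These are shares of counted molecules and take no account of how well each transcript is captured.

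**Figure D2:**
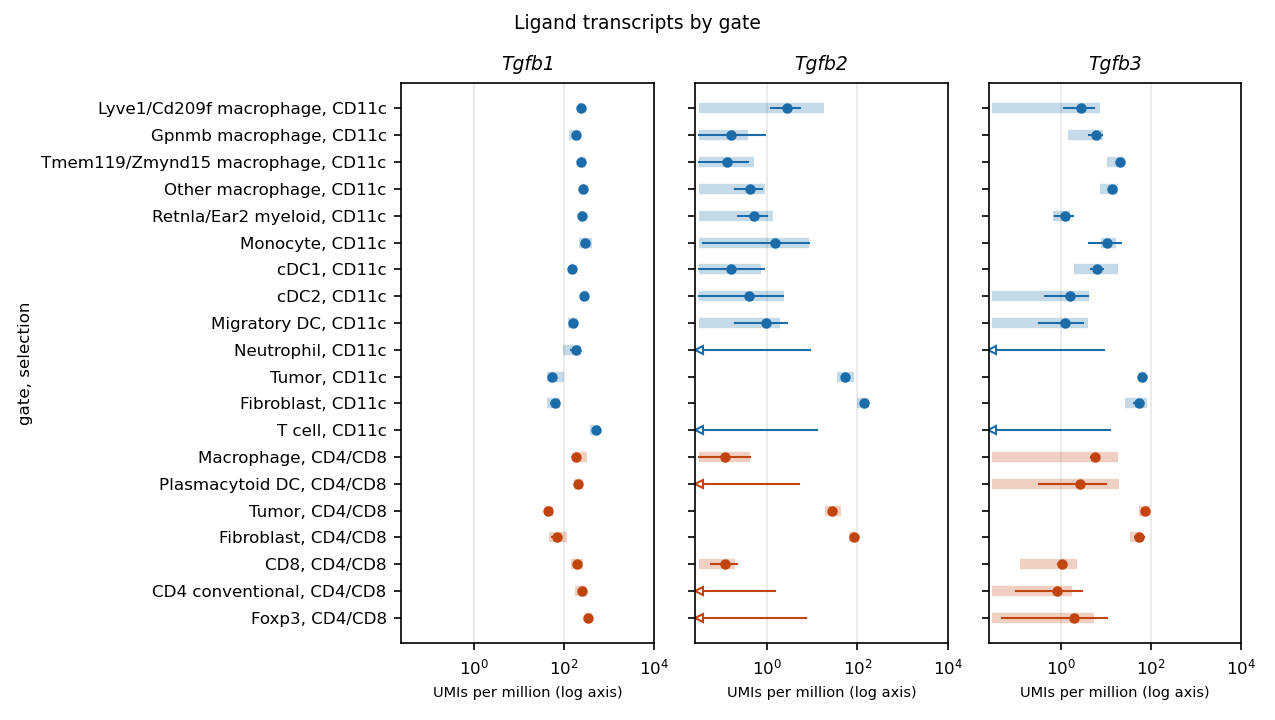
Levels of the 3 ligand genes (log axis, CPM) in each gate, CD11c-selected in blue and CD4/CD8-selected in orange. Points are gate levels, thin lines are 95% Poisson intervals, pale bars run from the lowest to the highest barcode run of at least 10 cells, and open triangles mark gates with 0 UMIs. Tumor cells and fibroblasts stand above all other gates for *Tgfb2*, with levels from 27.2 to 137.8.

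*Tgfbr1* (chr4:47353222-47414931, plus strand), the type I receptor that passes the signal on, was highest in plasmacytoid DCs, at 247.5 CPM (CI 213 to 286), and in Tmem119/Zmynd15 macrophages, at 238 (CI 232 to 244.6), 2 gates whose intervals overlap. Other macrophages were at 175 (CI 170 to 180) and Gpnmb macrophages at 105 (CI 97.3 to 113.5). Lyve1/Cd209f macrophages were far lower, at 42.3 (CI 35.2 to 50.5), and their 6 runs (32.1 to 53.6) did not reach the 6 runs of the Tmem119/Zmynd15 gate (195 to 297).

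The DCs of the CD11c selection held still less of *Tgfbr1*. The level was 25.5 CPM (CI 19.6 to 32.6) in cDC2, 23.2 (CI 19.6 to 27.2) in cDC1, and 31.6 (CI 25.8 to 38.4) in migratory DCs. CD8 and CD4 T cells of the CD4/CD8 selection were lowest, with 13.7 (CI 12.9 to 14.5) in CD8 cells and 16.7 (CI 12.0 to 22.7) in CD4 cells, whose intervals overlap. Without barcode run 1 the CD4 level was 7.59. The 55 T cells of the CD11c selection were higher, at 61.2 (CI 36.2 to 96.7), and at 34.3 without barcode run 1. Foxp3-gated cells held 38.4 (CI 23.5 to 59.3), from 20 UMIs in all.

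*Tgfbr2* (chr9:116084293-116175360, minus strand), the type II receptor that binds the ligand first, had another order. Fibroblasts were highest, at 461 (CI 429 to 495) and 475 CPM (CI 439 to 512) in the CD11c- and CD4/CD8-selected cells, with overlapping intervals. Lyve1/Cd209f macrophages came next at 283 (CI 264 to 303), with runs from 259 to 342, although they were the lowest of the C1q-positive macrophage gates for *Tgfbr1*. Plasmacytoid DCs held 234 (CI 200.4 to 272), which overlaps the Lyve1/Cd209f interval.

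In T cells *Tgfbr2* was at 145 CPM (CI 130.2 to 161) in CD4 cells and 117 (CI 114 to 119) in CD8 cells, where the 6 runs lay between 106.5 and 129. Foxp3-gated cells held less, 48.0 (CI 31.1 to 70.9). The lowest level of the 20 gates was in migratory DCs, at 10.8 (CI 7.49 to 15.0), below cDC1 at 37.6 (CI 33.0 to 42.6), cDC2 at 33.5 (CI 26.7 to 41.4), and Retnla/Ear2 myeloid cells at 33.2 (CI 30.4 to 36.2), which overlap one another.

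Both receptors were seen in the same cell in 53 of 77 plasmacytoid DCs, or 68.8% (CI 57.3 to 78.9), and in 58.5% of Tmem119/Zmynd15 macrophages (CI 56.2 to 60.8). The share was 24.7% in Lyve1/Cd209f macrophages (CI 19.5 to 30.5) and 3.65% in CD8 T cells (CI 3.35 to 3.96). Median depths differed, at 9187, 12001, 9337, and 4714 UMIs. With each cell thinned at random to 2000 UMIs the shares for these gates in turn were 14.3%, 9.49%, 4.02%, and 0.530%. The intervals of plasmacytoid DCs (7.35 to 24.1) and Tmem119/Zmynd15 macrophages (8.16 to 11.0) overlap. Here and below, cells with fewer than 2000 UMIs were left out of thinned shares.

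**Figure D3:**
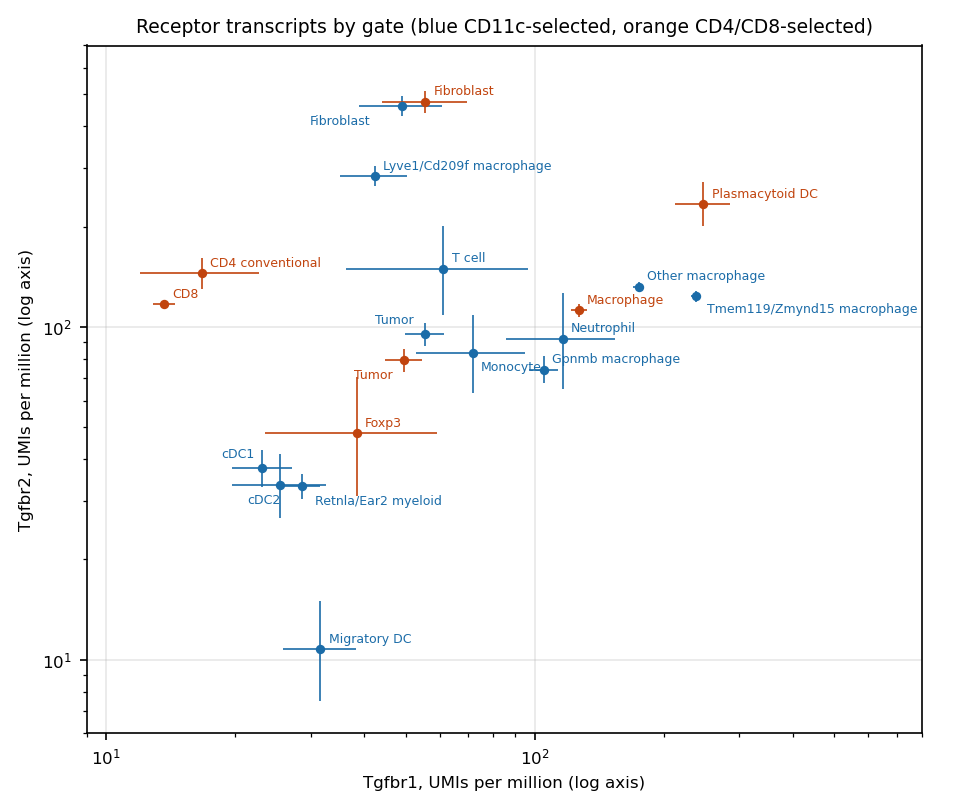
*Tgfbr2* against *Tgfbr1* (both log axes, CPM) for 20 gates, with 95% Poisson intervals as bars. Lyve1/Cd209f macrophages (42.3 of *Tgfbr1* and 283 of *Tgfbr2*) lie above and to the left of Tmem119/Zmynd15 macrophages (238 and 123), and migratory DCs are lowest for *Tgfbr2*.

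*Itgav* (chr2:83724397-83806916, plus strand) encodes the αv chain, which pairs with several β chains. Foxp3-gated T cells stood above every other gate, at 799 CPM (CI 724 to 879.5), and 89 of 97 cells, or 91.8% (CI 84.4 to 96.4), held at least 1 *Itgav* UMI, against 22.2% of CD8 cells, or 72.2% and 10.4% after thinning to 2000 UMIs. Their 3 runs gave 617, 725, and 1082. The 55 T cells of the CD11c selection were next, at 302 (CI 243 to 372), followed by tumor cells at 221 (CI 210.1 to 233) and 178 (CI 169 to 188) and fibroblasts at 170 (CI 151 to 191) and 137.5 (CI 119 to 158).

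The 4 gates of C1q-positive macrophages lay close together for *Itgav*, from 103 CPM in the Gpnmb gate (CI 95.1 to 111) to 139 in other macrophages (CI 134 to 144), and Retnla/Ear2 myeloid cells were at 73.7 (CI 69.5 to 78.1). CD4 T cells without *Foxp3* held 128 (CI 114 to 143), with runs from 74.0 to 247 and a level of 218 without barcode run 1, and CD8 T cells 60.4 (CI 58.8 to 62.1). The DC gates were low, between 42.4 in migratory DCs and 53.4 in cDC2, and plasmacytoid DCs were lowest at 21.6 (CI 12.4 to 35.2). With cells of several lineages kept, plasmacytoid DCs were at 43.8 and neutrophils at 134 of *Itgav*, and without barcode run 4 plasmacytoid DCs were at 8.11, so the order at the low end is not firm.

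*Itgb8* (chr12:119158022-119238802, minus strand), the gene of the β8 chain, which pairs with αv alone, was scarce outside Foxp3-gated and tumor cells. Foxp3-gated T cells held 148 CPM (CI 117 to 185), with 82.3, 160, and 193 in their 3 runs, so that 97 cells gave 12.4% of all *Itgb8* UMIs of their matrix. Tumor cells held 30.0 (CI 25.9 to 34.5) and 37.7 (CI 33.6 to 42.2), and gave 42.8% and 48.0% of the *Itgb8* UMIs of the CD11c- and CD4/CD8-selected cells. The intervals of these 3 gates did not reach that of any other gate of at least 50 cells.

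Below them, CD4 T cells without *Foxp3* were at 11.4 CPM of *Itgb8* (CI 7.60 to 16.5) and migratory DCs at 10.4 (CI 7.23 to 14.6). The 556 CD4 cells came unevenly from the runs, 64.8% of them from 1 run, and their run levels of *Itgb8* spread from 0 to 71.9. CD11c-selected macrophages were at 1.11 (CI 0.885 to 1.36) and CD8 T cells at 0.337 (CI 0.226 to 0.484). No *Itgb8* UMI was seen in 385 cDC1 cells, where 3 counts would be 0.460 CPM, in 224 cDC2 cells (1.20 CPM), or in 255 Lyve1/Cd209f macrophages (1.03 CPM).

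At least 1 *Itgb8* UMI was present in 40 of 97 Foxp3-gated cells, or 41.2% (CI 31.3 to 51.7), against 0.171% of CD8 cells (CI 0.112 to 0.250), at median depths of 4334 and 4714 UMIs. All 40 also held *Itgav* (CI 91.2 to 100%), as did 49 of the 57 cells without *Itgb8*, or 86.0% (CI 74.2 to 93.7). After thinning to 2000 UMIs, *Itgb8* was seen in 23.3% of Foxp3-gated cells (CI 15.1 to 33.4) and 0.0413% of CD8 cells. Among thinned Foxp3-gated cells *Itgav* was found in 66.7% of those with *Itgb8* (14 of 21) and 73.9% of those without (51 of 69), with overlapping intervals (43.0 to 85.4 and 61.9 to 83.8). Both chains were seen together in 41.2% of Foxp3-gated cells, 30.6% and 36.7% of tumor cells (median depths 17087 and 20852), and 0.660% of CD11c-selected macrophages. Thinned to 2000 UMIs, these shares were 15.6% (CI 8.77 to 24.7), 4.64% (CI 2.34 to 8.15), 1.66% (CI 0.454 to 4.20), and 0.0646%.

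*Lrrc32* (chr7:98489283-98502181, plus strand) encodes GARP, the surface anchor of latent TGF-β on regulatory T cells, platelets, and endothelium. Of the gates of at least 50 cells, fibroblasts were highest, at 102 CPM (CI 86.8 to 118) and 80.5 (CI 66.4 to 96.8), with overlapping intervals. The 17 endothelial cells, too few to be ranked, held 182 (CI 131 to 246). Foxp3-gated cells were at 23.0 (CI 11.9 to 40.3), from 12 UMIs in 11 cells, and migratory DCs at 20.9 (CI 16.2 to 26.5). With 2 *Foxp3* UMIs required in place of 1, the Foxp3 gate held 50 cells and *Lrrc32* was at 12.4.

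Among myeloid cells *Lrrc32* was higher in cDC2, at 12.4 CPM (CI 8.39 to 17.5), and Retnla/Ear2 myeloid cells, at 12.2 (CI 10.6 to 14.1), than in CD11c-selected macrophages, at 4.90 (CI 4.43 to 5.42). The macrophages as a whole can include cells of the Retnla/Ear2 gate, so these 2 groups are not separate. Other macrophages, which share no cell with that gate, held 5.87 CPM of *Lrrc32* (CI 4.945 to 6.91). Run levels of *Lrrc32* in Retnla/Ear2 cells spread from 3.51 to 24.4. CD8 T cells held 0.349 (CI 0.235 to 0.498). Platelets carry GARP, so macrophages with and without a UMI of a platelet marker gene were set side by side. The 73 CD11c-selected macrophages with one held 4.44 of *Lrrc32* (CI 1.63 to 9.67) and 242 of *Tgfb1* (CI 217 to 270), and the 6897 without held 4.91 (CI 4.43 to 5.43) and 241 (CI 238 to 244.5). Their median depths were 14760 and 8681 UMIs. Such a UMI also occurred in 43 of 265 CD11c-selected tumor cells and 24 of 106 fibroblasts. It therefore does not by itself mark a bound platelet, and a part of platelets in these levels was not tested.

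*Thbs1* (chr2:118111876-118127133, plus strand), which encodes thrombospondin 1, was highest in neutrophils, short-lived phagocytes. They held 4997 CPM (CI 4784 to 5218), with 3333, 3861, and 6536 in their 3 runs, and a *Thbs1* UMI was present in 104 of 140 cells, or 74.3% (CI 66.2 to 81.3). In cDC1, where the level was 5.83 (CI 4.12 to 8.0), 5.97% of cells had a UMI (CI 3.82 to 8.83), although their median depth of 15497 UMIs was above the 2830.5 of neutrophils. Thinned to 2000 UMIs, the shares were 77.1% and 1.31%, of the 109 neutrophils and 382 cDC1 cells that had at least 2000. If cells with markers of several lineages are kept, the neutrophil gate has 161 cells and *Thbs1* is at 1622, level with fibroblasts at 1614, so the order of these gates rests on leaving such cells out. Fibroblasts followed at 1725 (CI 1662 to 1790) and 998 (CI 946 to 1051), and monocytes at 1636 (CI 1541 to 1736), which overlaps the higher fibroblast level.

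The macrophage and Retnla/Ear2 gates differed among themselves in *Thbs1*. Retnla/Ear2 myeloid cells were at 835 CPM (CI 821 to 850), other macrophages at 564 (CI 554 to 573), Gpnmb macrophages at 476 (CI 459 to 493), Tmem119/Zmynd15 macrophages at 165 (CI 160 to 170.1), and Lyve1/Cd209f macrophages at 77.1 (CI 67.3 to 87.8). The runs of one gate differed widely too, from 7.87 to 168 in Lyve1/Cd209f macrophages and from 78.6 to 326 in Tmem119/Zmynd15 macrophages, so these 2 gates overlap by run. With marker thresholds doubled they were at 47.6 and 99.5. Tumor cells held 595 (CI 576 to 614) and 338 (CI 326 to 351). In T cells *Thbs1* was nearly absent, at 0.871 (CI 0.685 to 1.09) in CD8 cells and with no UMI in the 97 Foxp3-gated cells, where 3 counts would be 5.76 CPM.

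**Figure D4:**
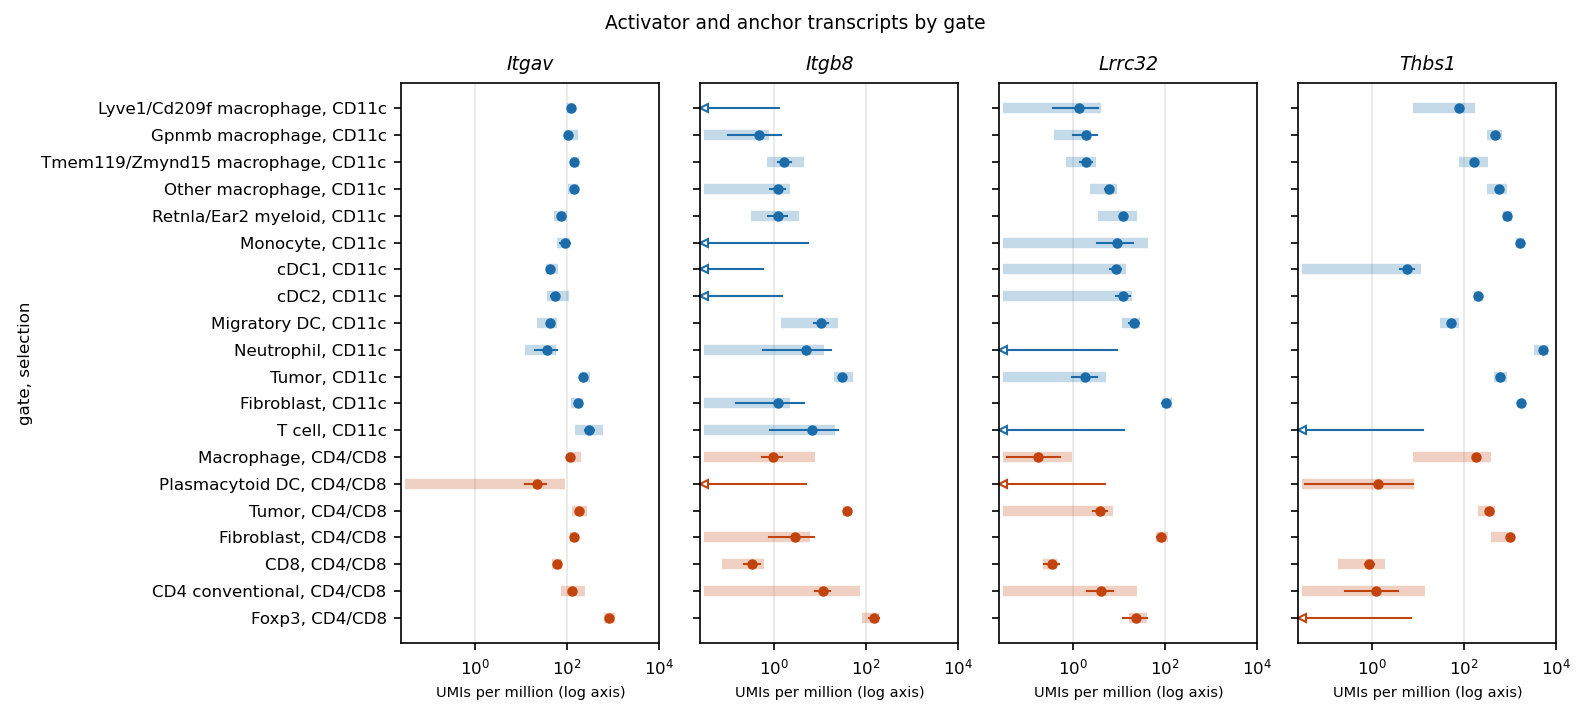
Levels of *Itgav*, *Itgb8*, *Lrrc32*, and *Thbs1* (log axis, CPM) in each gate, drawn as for the ligands: points with 95% Poisson intervals, pale bars for the range over barcode runs, and open triangles for 0 UMIs. The Foxp3 gate is highest for *Itgav* (799) and *Itgb8* (148), fibroblasts for *Lrrc32* (102), and neutrophils for *Thbs1* (4997).

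*Tgfbi* (chr13:56609523-56639562, plus strand), the matrix protein gene named for its response to TGF-β, had its highest levels in macrophages and monocytes. Tmem119/Zmynd15 macrophages were highest at 1575 CPM (CI 1559 to 1591), with runs from 948 to 1940, and 97.8% of them held a UMI (CI 97.1 to 98.5). Monocytes were at 1349 (4 runs from 894 to 1881), other macrophages at 1182 (CI 1169 to 1196), and Gpnmb macrophages at 950 (CI 926 to 974.5), and the runs of these 4 gates overlap. Lyve1/Cd209f macrophages held 462 (CI 438 to 487), with runs from 395 to 518. Retnla/Ear2 myeloid cells were at 738 (CI 725 to 752) and CD4/CD8-selected macrophages at 620 (CI 608 to 631.5). Neutrophils were at 735 (CI 655 to 823), and at 268 with cells of several lineages kept. The cDC2 gate, at 552 (CI 523 to 582), was above Lyve1/Cd209f macrophages. The cDC1 gate was at 399 (CI 384 to 415) and migratory DCs at 167 (CI 153 to 181).

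Fibroblasts held 34.5 (CI 26.1 to 44.6) and 29.2 CPM (CI 21.0 to 39.6) of *Tgfbi* in the CD11c- and CD4/CD8-selected cells, the latter at 18.4 without barcode run 2 and 44.7 without run 3, and tumor cells 15.2 (CI 12.4 to 18.5) and 2.78 (CI 1.75 to 4.22). CD8 T cells, at 1.09 (CI 0.882 to 1.34), had a UMI in 0.545% of cells. At 2000 UMIs per cell the shares were 85.3% in Tmem119/Zmynd15 macrophages and 0.296% in CD8 cells, whose full median depths were 12001 and 4714. Macrophages gave 82.2% of the *Tgfbi* UMIs of the CD11c-selected and 84.9% of those of the CD4/CD8-selected cells.

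Pairs of gates were then compared by the fold of their levels, counting genes with at least 20 UMIs over both gates as called at 2-fold or more. Between Foxp3-gated and CD8 T cells, 23.8% of 12638 genes were called in either direction, 16.6% higher and 7.19% lower in Foxp3-gated cells, and 5 of the 9 members that reached 20 UMIs were, 4 higher and 1 lower. Higher in Foxp3-gated cells were *Itgb8* (439-fold, CI 283 to 698), *Lrrc32* (66.1-fold, CI 30.8 to 133), *Itgav* (13.2-fold, CI 11.9 to 14.6), and *Tgfbr1* (2.81-fold, CI 1.71 to 4.37), and each was higher in all 3 runs compared. *Tgfbr2* was lower, at 0.411 of the CD8 level (CI 0.266 to 0.608). *Tgfb1* was 1.76-fold higher (CI 1.51 to 2.03), under the 2-fold limit. *Tgfbi* and *Thbs1* reached 20 UMIs through CD8 cells alone and had none in Foxp3-gated cells. The median log2 fold was 0.86 over the members and 0.01 over all genes.

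CD4 T cells without *Foxp3* are nearer in kind to Foxp3-gated cells, and that pair was added after the levels had been seen. Here 17.1% of 7793 genes were called, 9.55% higher and 7.53% lower, and 5 of the 6 members that reached 20 UMIs, 4 higher and 1 lower. *Itgb8* was 12.9-fold higher (CI 8.30 to 20.7), *Itgav* 6.23-fold (CI 5.37 to 7.24), *Lrrc32* 5.65-fold (CI 2.24 to 14.6), and *Tgfbr1* 2.30-fold (CI 1.27 to 4.01) in Foxp3-gated cells, each in 3 of 3 runs. *Tgfbr2* was at 0.331 of the CD4 level (CI 0.212 to 0.497). These are the 5 genes called against CD8 cells, but the 2 comparisons share the Foxp3-gated cells. Without barcode run 4 the count against CD4 cells was 3, and *Tgfbr1* was at 1.57-fold, as it was at 1.39-fold with cells of several lineages kept. Without barcode run 1 the *Itgav* level of CD4 cells rose from 128 to 218 CPM. Their *Itgb8* level lay between 9.66 and 19.5 with runs left out in turn. The sizes of the *Itgav* and *Itgb8* folds are therefore less sure than their counting intervals show.

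Among macrophages, the Tmem119/Zmynd15 gate was set against the Lyve1/Cd209f gate. The background was 27.4% of 11390 genes, 14.0% higher and 13.4% lower, and 5 of 9 members were called, 4 higher and 1 lower. *Tgfb3* was 7.29-fold higher (CI 3.67 to 17.0, on 8 UMIs in the Lyve1/Cd209f gate), *Tgfbr1* 5.63-fold (CI 4.71 to 6.79), *Tgfbi* 3.41-fold (CI 3.23 to 3.60), and *Thbs1* 2.14-fold (CI 1.87 to 2.46) in the Tmem119/Zmynd15 gate. All but *Thbs1* (5 of 6) were higher in 6 of 6 runs, and the *Thbs1* call was lost as a mean over cells (1.66-fold), with cells of several lineages kept (1.60-fold), and without barcode run 2 (1.84-fold) or 4 (172 against 114 CPM). *Tgfbr2* was at 0.436 of the Lyve1/Cd209f level (CI 0.403 to 0.471), lower in all 6 runs. *Tgfb1* stood at 1.01-fold (CI 0.933 to 1.09). *Itgb8* had 40 UMIs in the Tmem119/Zmynd15 gate, or 1.67 CPM (CI 1.19 to 2.27). It had no UMI in the Lyve1/Cd209f gate (CI 0 to 1.27 CPM), and the 2 intervals overlap. Its level was 1.62 times a floor of 3 counts in the Lyve1/Cd209f gate, which is not a lower limit of the fold.

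Gpnmb macrophages differed from the same Lyve1/Cd209f gate in 5 of 7 members, 4 higher and 1 lower, against 23.7% of 10199 genes, 12.0% higher and 11.8% lower. *Thbs1* was 6.17-fold higher (CI 5.39 to 7.10), *Tgfbr1* 2.49-fold (CI 2.05 to 3.04), and *Tgfbi* 2.06-fold (CI 1.94 to 2.18), each in 5 of 5 runs. *Tgfb3* was 2.16-fold higher (CI 0.988 to 5.36), in 3 of 5 runs, on 8 UMIs in the Lyve1/Cd209f gate. The calls of *Tgfb3* and *Tgfbi* were each lost under 5 alternatives, at folds from 1.26 (*Tgfb3* without barcode run 5) to 1.97. *Tgfbr2* was at 0.263 of the Lyve1/Cd209f level (CI 0.234 to 0.295) and *Tgfb1* at 0.762 (CI 0.692 to 0.838).

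Monocytes were compared with all CD11c-selected macrophages, where 18.1% of 13040 genes were called, 10.0% higher and 8.11% lower, and 3 of 10 members, 2 higher and 1 lower. *Thbs1* was 4.07-fold higher in monocytes (CI 3.83 to 4.32), in 4 of 4 runs, and *Tgfbr1* was at 0.464 of the macrophage level (CI 0.342 to 0.615), lower in 4 of 4. The latter call was lost with thresholds doubled (118 against 158 CPM, 0.747 of the level) or halved (0.543), and without barcode run 2 (0.567) or 5 (0.516). The third call, *Tgfb2*, rests on 1 UMI in monocytes (4.05-fold, CI 0.0992 to 24.5). Without barcode run 5 the count was 1.

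**Figure D5:**
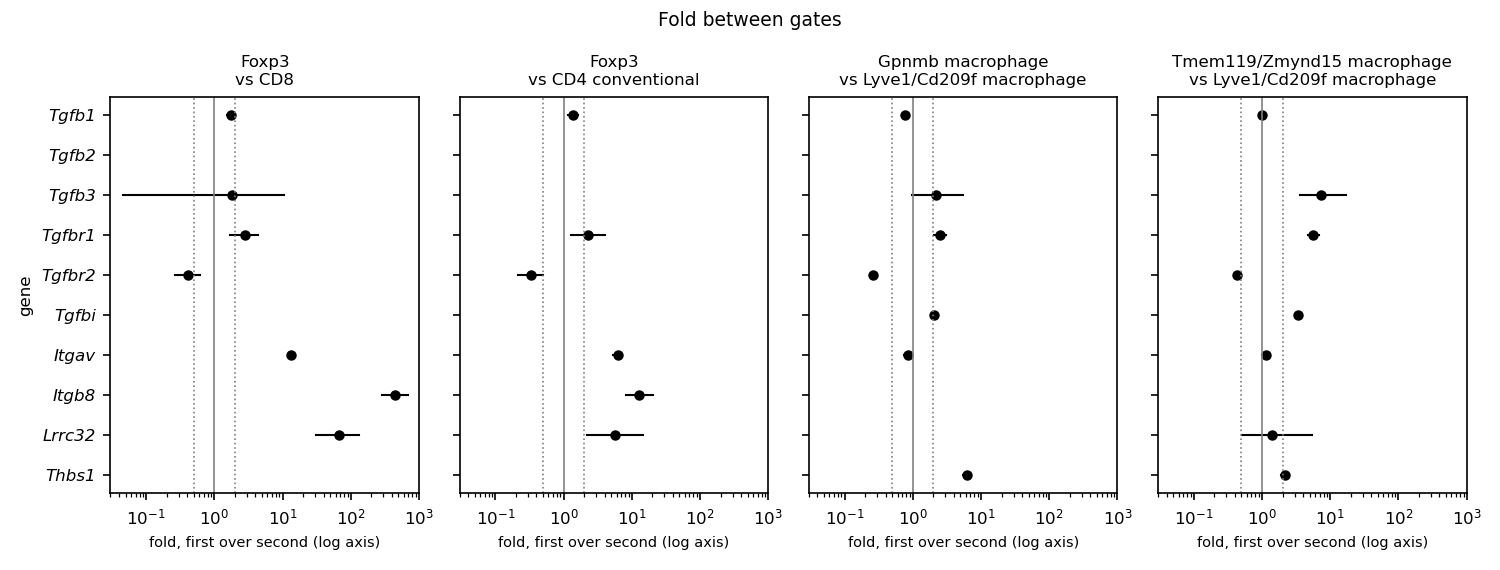
Fold between gates (log axis, first gate over second) for members with at least 20 UMIs over both gates and at least 1 in each, with exact 95% intervals. The solid line marks equal levels and the dotted lines 2-fold. The 4 panels show Foxp3-gated against CD8 and CD4 T cells and Gpnmb and Tmem119/Zmynd15 against Lyve1/Cd209f macrophages, and in these *Tgfbr2* is left of the line of equal levels and *Tgfbr1* to the right. Monocytes against macrophages are not drawn.

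Within CD8 T cells, 2 states with *Pdcd1*, which encodes PD-1, were set apart by *Slamf6*, a receptor gene of progenitor exhausted cells, and *Havcr2*, which encodes TIM-3. *Itgav* was at 66.1 CPM (CI 59.9 to 72.8) in 841 cells with *Pdcd1* and *Slamf6* but no *Havcr2*, with runs from 34.6 to 117, and at 120 (CI 108 to 133) in 461 cells with *Pdcd1* and *Havcr2* but no *Slamf6*, with runs from 70.5 to 193. *Tgfb1* was at 178 (CI 168 to 189) and 277 CPM (CI 258 to 297) in the same states, with runs from 116 to 223 and from 148 to 445. For both genes the second state was higher and its interval did not reach the first, although the runs overlapped. *Tgfbr2* was at 114 CPM in both. Median depth was 6043 and 4974 UMIs, and its part in the levels was not tested.

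The pair of CD8 gates that follows was added after the levels had been seen. *Itgae*, a gene known to respond to TGF-β in T cells, encodes the αE chain of resident T cells. Between 2916 CD8 cells with an *Itgae* UMI and 12308 without, 4.02% of 12604 genes were called, 2.15% higher and 1.87% lower, and 1 of 9 members was higher. This was *Tgfb3*, at 2.38 against 0.642 CPM (3.71-fold, CI 2.40 to 5.73, in 5 of 6 runs). *Tgfbr1* was at 12.7 and 14.0, *Tgfbr2* at 123 and 115, and *Itgav* at 70.4 and 57.3 CPM in the cells with and without *Itgae*.

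Other genes of the pathway were taken from a list of 41, chosen with earlier results known, of which 39 reached 20 CPM in some gate. Those that store latent TGF-β were mostly genes of fibroblasts and tumor cells, save the myeloid anchor. *Fbn1*, which encodes fibrillin 1, was at 1728 CPM in CD11c-selected fibroblasts and *Ltbp4* at 218, whereas *Ltbp3* was highest in tumor cells at 268 (CI 256 to 281). *Nrros*, which encodes the myeloid anchor of latent TGF-β, was highest in Lyve1/Cd209f macrophages at 231.5 (CI 214 to 250).

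Other β chains that pair with αv were highest in tumor cells, macrophages, or fibroblasts. *Itgb1* was highest in CD11c-selected fibroblasts, at 572 CPM (CI 536 to 609.5). *Itgb5* was highest in Tmem119/Zmynd15 macrophages, at 412 CPM (CI 404 to 420), and was not seen in Foxp3-gated cells. *Itgb6*, an epithelial chain, was highest in tumor cells at 36.1 (CI 31.6 to 41.0), and *Itgb3* also in tumor cells at 54.1 (CI 48.6 to 60.0). Foxp3-gated cells held 23.0 of *Itgb3*, against 4.19 in CD8 cells (5.5-fold, CI 2.81 to 9.72) and 29.8 in CD4 cells without *Foxp3*. Of *Itgb1* they held 146, against 273 in CD8 cells and 408 in those CD4 cells.

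Of the 32 listed genes that reached 20 UMIs between Foxp3-gated and CD8 cells, 8 were called higher and 1 lower, or 28.1% against 23.8% of all genes, and the median log2 fold was -0.11 for the list and 0.01 for all. Higher were the receptor gene *Bmpr2* (104 against 5.72 CPM, 18.1-fold, CI 13.4 to 24.1) and *Furin*, whose product cleaves the TGF-β precursor (296 against 60.1, 4.92-fold, CI 4.17 to 5.78). The inhibitor *Smad7* was nearly level, at 680 in Foxp3-gated and 683 in CD8 cells.

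Between Tmem119/Zmynd15 and Lyve1/Cd209f macrophages, 10 of 31 listed genes were called higher and 6 lower, or 51.6% against 27.4% of all genes. *Itgb5* was 5.44-fold higher (CI 4.76 to 6.25), *Pmepa1*, an inhibitor that TGF-β induces, 5.69-fold (CI 5.08 to 6.38), and *Mmp14*, a membrane protease, 11.4-fold (CI 8.78 to 14.9). *Nrros* was at 0.308 (CI 0.282 to 0.337) and *Furin* at 0.316 (CI 0.298 to 0.336) of the Lyve1/Cd209f level. *Tmem119* was used to set the gate, so its own call, which is counted among the 10, is no result. *Cx3cr1*, also among the 10, was a check marker of that gate.

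For each member the genes with the most similar pattern were sought among 9753 genes, by Pearson's r of log2(CPM + 1) over 20 gates, which come from only 2 matrices. *Thbs1* was nearest to *Ptgs2*, which encodes cyclooxygenase 2 (r = 0.948), *Tgfbi* to *Lrrc25* (0.952) and *Csf2ra* (0.951), and *Tgfb2* to *Tnc*, which encodes the matrix protein tenascin C (0.987). *Itgb8* was nearest to *Dusp14* (0.918), *Itgav* to *Plcb3* (0.881), and *Lrrc32* to *Il6st* (0.860). The highest value was 0.806 for *Tgfbr1* (*Zfp691*) and 0.852 for *Tgfbr2* (*Mrfap1*), the lowest of the members, and 0.928 for *Tgfb1* (*Dr1*) and 0.905 for *Tgfb3* (*Gstm5*).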

How the data were processed

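The deposited values are raw UMI counts, which the authors gave as 1 matrix of genes by cells for each selection. Cell Ranger 3.0.2 and the build mm10 are named in the submitters' processing notes. Cells had to show 200 or more genes, and gates were set on summed UMIs of marker genes (10 for *C1qa*, *C1qb*, and *C1qc* in macrophages, 10 for *S100a8* and *S100a9* in neutrophils, 10 for keratins and *Epcam* in tumor cells, 10 for collagens in fibroblasts, 1 for *Foxp3*). Monocytes and DCs lacked the macrophage sum, and other macrophages passed no further gate. The Retnla/Ear2 gate may hold cells with or without the macrophage sum. Cells of more than 1 lineage were left out, and no doublet caller was run. The 827 CD11c-selected cells in more than 1 myeloid gate were left out of the finer gates. Those with the macrophage sum stayed among all CD11c-selected macrophages. The gates held 8933 and 17274 cells. UMIs were summed per gate, and folds carry exact intervals for 2 Poisson counts. On simulated counts for Foxp3 against CD8 cells, 100 of 100 genes changed 4-fold were recovered in each direction and 95.7% of 1000 intervals held the true value. The members, lists, and markers were chosen with earlier results of these data known, and UMI thresholds were set from the marker sums. The 10 members were all named, and other genes by the pathway list and by likeness. No value came from columns of other samples. The planned test of genotypes was not run because no column names a sample. Positions and reading frames are from GENCODE M21, which held 30431 (98.0%) of the gene symbols. Python 3.11.15, numpy 2.4.6, scipy 1.17.1, and pandas 2.3.3 were used. Alternatives were thresholds doubled or halved, the mean over cells scaled to 10000 UMIs, 500 detected genes, cells of several lineages kept, mitochondrial UMIs up to 10%, repeated barcodes left out, runs left out in turn, and, added after the data were seen, cells with platelet marker UMIs left out.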

Additional observations from a re-analysis of the deposited data

How the results depend on the processing

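The highest level of every member but *Itgb8* moved past its counting interval under some setting. With thresholds doubled it was 1594 CPM for *Tgfbi* and 5558 for *Thbs1*, and with them halved 434.3 for *Tgfbr2*. As a mean over cells it was 1655 for *Tgfbi*, 4554 for *Thbs1*, 119.7 for *Lrrc32*, 1056 for *Itgav*, and 418.0 for *Tgfbr2*. With cells of several lineages kept it was 1429 for *Tgfbi*, 1622 for *Thbs1*, 366.4 for *Tgfb1*, 203.7 for *Tgfbr1*, and 420.1 for *Tgfbr2*. With mitochondrial UMIs up to 10% it was 703.9 for *Itgav* and 66.5 for *Tgfb3*, and without platelet marker UMIs 66.29 for *Tgfb3* and 406.7 for *Tgfbr2*. Leaving out 1 barcode run gave 1453 to 1632 for *Tgfbi*, 3424 (without run 6) to 5570 for *Thbs1*, 120.1 to 153.0 for *Tgfb2*, 94.01 to 109.6 for *Lrrc32*, 478.4 to 565.6 for *Tgfb1*, 647.8 to 842.7 for *Itgav*, 123.7 to 158.5 for *Itgb8*, 225.7 to 282.4 for *Tgfbr1*, 67.82 to 75.68 for *Tgfb3*, and 425.4 to 505.2 for *Tgfbr2*. Thinning lowered the share of cells with a UMI in the gate of the highest level to 55.77% for *Tgfb1*, 20.21% for *Tgfb2*, 85.31% for *Tgfbi*, 15.96% for *Lrrc32*, 14.94% for *Tgfb3*, 37.66% for *Tgfbr1*, 43.68% for *Tgfbr2*, 72.22% for *Itgav*, and 23.33% for *Itgb8*. Members past 2-fold numbered 3 for Gpnmb against Lyve1/Cd209f macrophages as a mean over cells, and 2 for CD8 cells with and without *Itgae* with thresholds doubled, as a mean over cells, with several lineages kept, or under the mitochondrial limit. Without 1 run they numbered 5 to 6 for Foxp3-gated against CD8 cells, 3 (without run 4) to 5 against CD4 cells, 4 to 5 and 4 to 6 for Gpnmb and Tmem119/Zmynd15 against Lyve1/Cd209f macrophages, 1 (without run 5) to 4 for monocytes, and 1 to 2 for *Itgae*. Of 139 levels of 20 CPM or more, 16 moved over 1.5 times with cells of several lineages kept, 6 with thresholds doubled, 2 with them halved, and 4 with 1 run left out, and none did as a mean over cells, with 500 detected genes, under the mitochondrial limit, or with repeated barcodes or platelet markers left out. The cause of these moves was not tested. No paired analysis was possible because the matrices name no samples. Depth limits the small gates, where 3 counts are 10.2 CPM in the 55 T cells, 7.28 in neutrophils, and 5.76 in the Foxp3 gate.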
